A study of Mus musculus with 10 samples.

Results

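Chemokines and their receptors were examined in inguinal fat, which lies under the skin, of mice fed a high-fat diet. The members are the protein-coding genes of the counts table whose symbol begins with Ccl, Cxcl, Ccr, Cxcr or Ackr and a digit, with Cx3cl1, Cx3cr1, Xcl1 and Xcr1. This gave 60 of 52636 gene identifiers, 37 ligand genes and 23 receptor genes. Of these, 42 passed a filter on low counts (25 ligands and 17 receptors) and were tested among 15927 genes, 13 had some counts but did not pass, and 5 had a count of 0 in every library. Since a gene can pass the filter through the group in which it is high, the tested members are not a sample of all 60.

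The control group held 5 libraries from C57BL/6 mice with both Tcf7l2 alleles floxed, which the genotype label calls wild type. The knockout group held 5 libraries from mice of the same strain and floxed alleles that carried in addition a Cre written Adp-Cre, whose promoter is not spelled out, and its label names a Tcf7l2 deletion in adipose tissue. Only this group carried Cre, so Cre and the deletion cannot be told apart. Both groups were 6 months old and ate a 65% high-fat diet, for 16 weeks per the diet label, 12 weeks per the descriptions and 4 months per the protocol. Whole tissue was sequenced, so each value adds up adipocytes and all other cells of the depot. The labels do not state that each library came from its own mouse, and if some did not, the p-values describe only the spread between libraries.

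Chemokines are small secreted proteins that guide leukocytes along concentration gradients. They are grouped by the spacing of their first cysteines into CC, CXC, CX3C and XC ligands. The classical receptors couple to inhibitory G proteins, whereas the atypical receptors take up ligands without that signal. In obese fat the ligands that draw monocytes through Ccr2 are the best known, while Ccr7 and Cxcr5 direct lymphocytes and dendritic cells within lymphoid tissue, and the inguinal depot surrounds a lymph node.

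Libraries held 14032866 to 17782073 counts. A floor of 3 counts equals 0.172 to 0.205 CPM, the counts scaled to library size with TMM factors. Tcf7l2 was lower in every knockout library than in any control, 10.7 ± 0.909 CPM to 5.83 ± 0.311 CPM (mean ± SD, n = 5 each, log2 fold change -0.87, standard error 0.10, adjusted p = 6.1e-04). Knockout 1 stood apart in lymphocyte transcripts. The summed level of 21 T cell markers was 311 CPM there, 65.7 to 78.4 CPM among controls, and 68.5 to 111 CPM among the other knockouts. For 15 B cell markers it was 1945 CPM against 702 to 1009 CPM among controls, and 903 to 1102 CPM among the other knockouts. As a mean log2 CPM, which weighs the 15 markers more evenly, the B cell level was 1.23 to 2.36 in the controls. By that measure knockouts 1, 4 and 5 lay above all controls, at 5.74, 3.01 and 2.46, and knockouts 2 and 3 within them, at 1.99 and 1.83. Glycam1, made by the high endothelium of lymph nodes and named after its values were seen, was at 7.93 CPM in knockout 1 and at 0 to 0.863 CPM elsewhere. The adipocyte markers, 11 genes, summed to 23567 to 29916 CPM among controls, 25506 to 34488 CPM among knockouts, with 1 higher and 3 lower. Markers of NK cells (8), neutrophils (3), mast cells and eosinophils (8), adipocyte progenitors (10), lymph node stroma (2) and skeletal muscle (7) held 0 calls by edgeR among those tested, and 2, 1, 0, 3, 0 and 0 had an unadjusted p below 0.05. Of all 15927 tested genes 31.0% had such an unadjusted p by edgeR. Transcripts annotated as intronic or unverified took 0.201% to 0.306% of counts in controls 1 to 4, 0.158% in control 5 and 0.125% to 0.179% in the knockouts. The part of these differences in the results below was not tested beyond the fits given beside them. The controls carry library numbers 1 to 5 and the knockouts 6 to 10, so handling that followed this order and genotype cannot be told apart.

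Knockout and control tissue differed in 8 of the 42 tested members at an adjusted p below 0.05 by edgeR's quasi-likelihood test. The ligand genes Xcl1, Ccl5 and Ccl22 and the receptor genes Xcr1, Ccr7 and Cxcr5 were higher in the knockout, and the ligand gene Ccl27a and the scavenging receptor gene Ackr4 were lower. The share of members called was 19.0%, beside 12.9% of all tested genes. It was 14.3% for higher, beside 5.84% of all genes, and 4.76% for lower, beside 7.05%. The groups did not overlap in CPM for 3 members (Xcl1, Xcr1 and Ccr9), 7.14% of those tested, beside 8.99% of all genes. The median log2 fold change of the tested members was 0.20 and that of all tested genes 0.00018, and 28 members stood above 0 and 14 below. In bulk tissue, more or fewer cells of a type and more or less RNA per cell cannot be told apart.

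By class, 2 of 15 tested CC ligands were higher and 1 lower, and 0 of 8 CXC ligands were called by edgeR or had an unadjusted p below 0.05. Of the 42 tested members 12 had an unadjusted p below 0.05, beside 31.0% of all tested genes. DESeq2 and limma-voom, run as other tools, called 0 CXC ligands too. Here and below limma-voom was run with quality weights, so the libraries need not count equally in it. Of the 7 CC receptors 1 was higher, and all 7 had a log2 fold change above 0. Of the 4 CXC receptors 1 was higher. All 4 atypical receptors stood below 0, and 1 was lower. Xcl1 and Cx3cl1 held 1 call between them, as did their receptors Xcr1 and Cx3cr1.

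**Figure D1:**
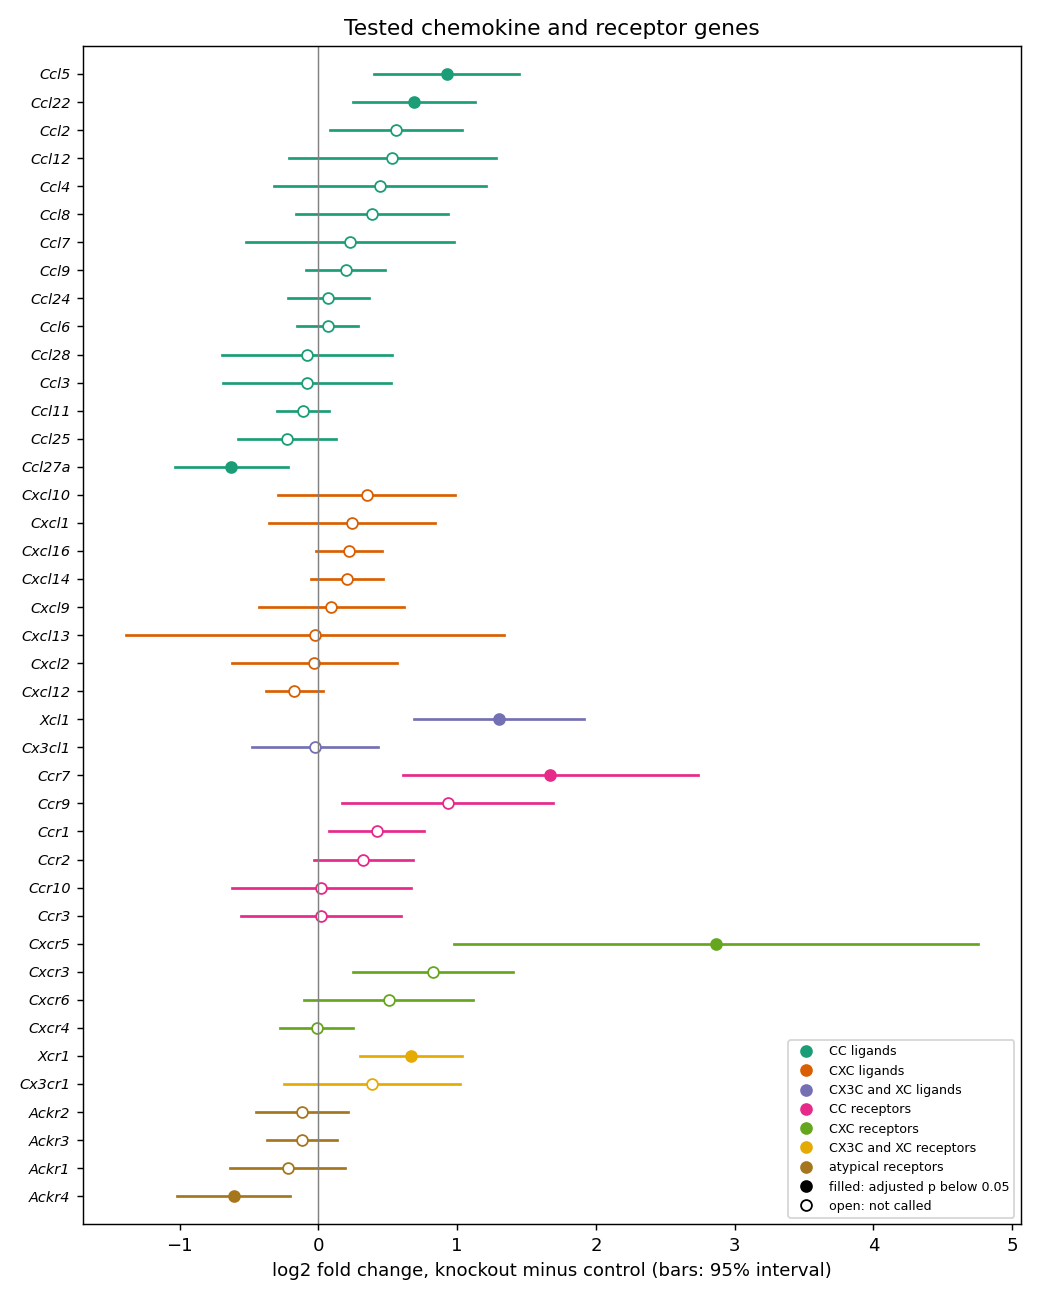
Log2 fold change (knockout minus control) of 41 of the 42 tested members, grouped and coloured by class, with 95% intervals as bars; filled circles are the 8 called members and open circles the others. Cxcr5 lies furthest to the right at 2.86, with the widest interval, and all 4 atypical receptors lie to the left of 0.

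Each of these 8 calls was lost in at least 1 fit that left out 1 library, while the fold changes mostly stayed of similar size. When each of the 10 libraries was left out in turn, Xcl1 kept its call in 9 fits (lost without control 2) and Xcr1 in 6 (lost without control 2, control 4, knockout 2 or knockout 5). Ccl5 kept it in 4 fits (lost without any of controls 1 to 4, knockout 3 or knockout 5) and Ccr7 in 3 (without knockout 1, 3 or 4). Ackr4 and Ccl27a kept it in 2 fits (without control 5 or knockout 3), Ccl22 in 1 (without knockout 5) and Cxcr5 in 1 (without knockout 3). Over these 10 fits the log2 fold change ran from 1.15 to 1.48 for Xcl1, 0.59 to 0.75 for Xcr1, 0.77 to 1.09 for Ccl5, 0.57 to 0.80 for Ccl22, -0.77 to -0.55 for Ccl27a and -0.71 to -0.49 for Ackr4. It ran more widely for Ccr7, 0.82 to 1.86, and Cxcr5, 1.14 to 3.31. Calls over all genes moved in the same fits, from 2053 down to 537 without control 2 and 560 without control 1, and up to 3094 without control 5. No log2 fold change of these 8 genes changed sign in any of the other fits. Without control 2, 0 of the 8 passed, and Ccr1, absent from the 8, did (adjusted p = 0.0414). With the intronic-type level as a covariate 0 members passed and 49 of all 15927 genes did. The log2 fold changes in that fit were 1.21 for Xcl1, 0.63 for Xcr1, 1.10 for Ccl5, 0.81 for Ccl22, 2.24 for Ccr7, 3.39 for Cxcr5 and -0.39 for Ccl27a, and -0.17 for Ackr4. That level itself separated the knockouts from controls 1 to 4.

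Compared per kilobase of exon, so that levels can be set between genes, the ligands were led by 4 CC genes. Ccl6 and Ccl9, neighbouring genes on chromosome 11 whose products attract myeloid cells, reached 169 and 93.7 CPM per kilobase (mean of the 10 libraries). Ccl8, a monocyte attractant, stood between them at 124, and Ccl11, which encodes the eosinophil attractant eotaxin, at 78.5. Then came Cxcl9 at 18.8, Ccl7 at 18.6, Cxcl14 at 17.98, Ccl2 at 16.7, Cxcl12 at 12.7 and Ccl24 at 11.0. Within the first 4 genes and within the next 6, neighbours in this order overlapped between libraries, whereas all libraries of Ccl11 lay above those of Cxcl9. The 4 receptors of highest level were Ackr3 at 16.0, Ccr2 at 13.3, Cxcr4 at 11.0 and Ccr1 at 5.02 CPM per kilobase. Neighbours among the first 3 overlapped, and Ccr1 lay below every library of Cxcr4. By edgeR with the filter, none of these 14 genes was called, although limma-voom called Ccl2, Ccr1 and Ccr2 higher and the fit without a filter called Ccl2 and Ccr1. The receptor after Ccr1 was Ackr2, at 4.56 CPM per kilobase. Mean levels of Ackr2 and Ccr1 were 4.74 and 4.29 in controls, and 4.38 and 5.75 in knockouts. Which of them ranks higher is therefore not settled.

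**Figure D2:**
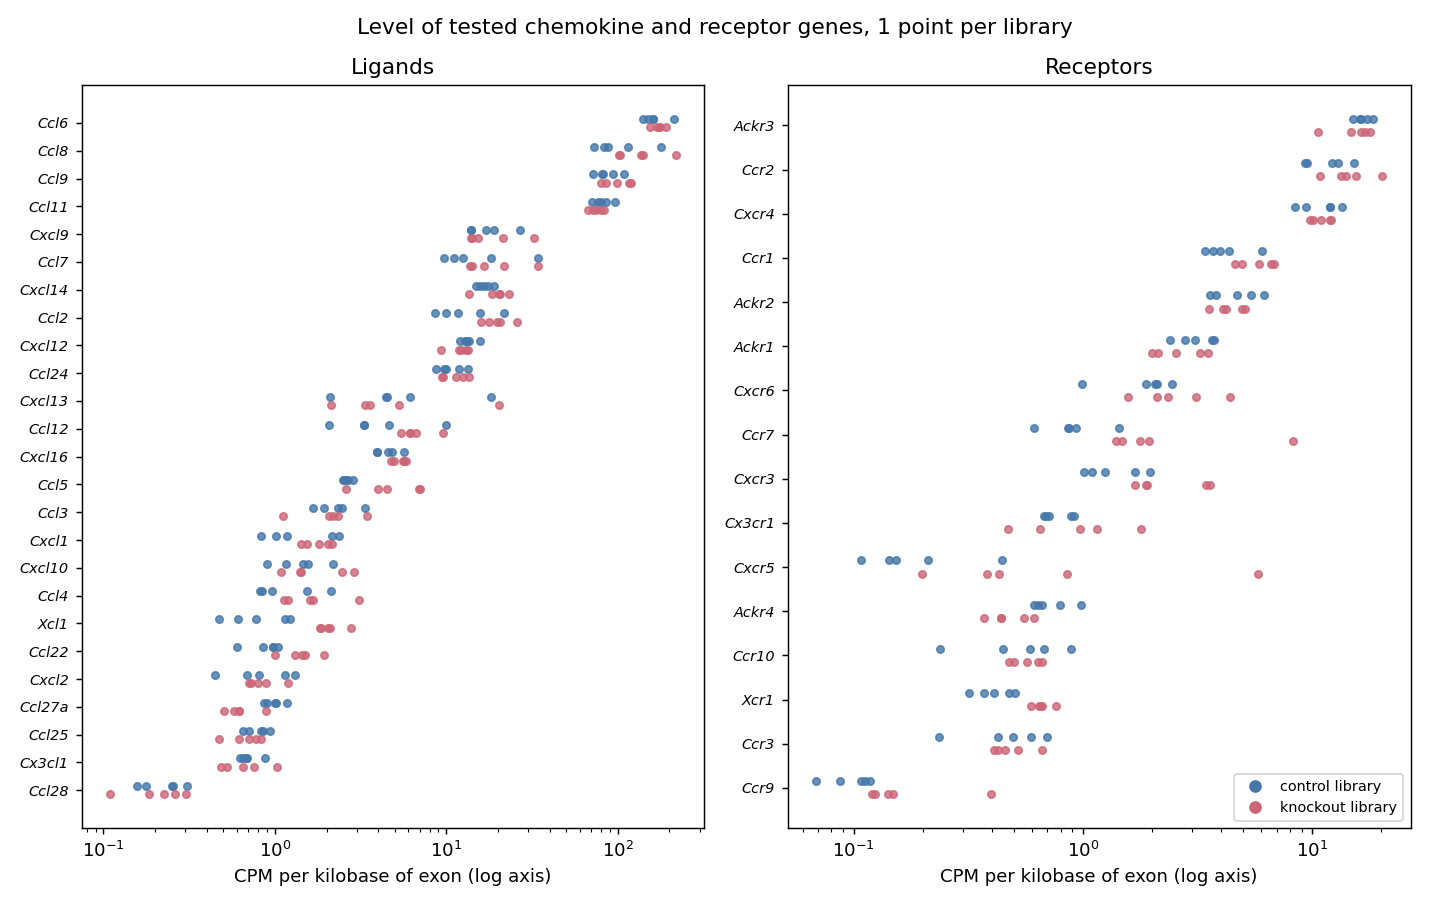
CPM per kilobase of exon (log axis) of the 25 tested ligands (left) and 16 of the 17 tested receptors (right), 1 point per library, controls in blue and knockouts in red. Ccl6, Ccl8, Ccl9 and Ccl11 lie apart at the top of the ligands, while Ackr3, Ccr2 and Cxcr4 lead the receptors.

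The inflammatory CC ligands lie in 2 clusters on chromosome 11. In the first (82035571 to 82305690), Ccl2, Ccl7, Ccl11, Ccl12 and Ccl8 were tested, and edgeR with the filter on low counts called none of them. Ccl2, the main ligand of Ccr2, was at 13.4, 11.3, 9.77, 17.8 and 24.8 CPM across controls 1 to 5, and at 29.4, 22.5, 20.2, 23.4 and 18.1 CPM across knockouts 1 to 5. Control 5 lay inside the knockout range, and the other 4 controls lay below every knockout. The means were 15.4 ± 6.05 CPM in controls and 22.7 ± 4.28 CPM in knockouts (log2 fold change 0.56, 95% interval 0.08 to 1.04, adjusted p = 0.105). Without control 5 the log2 fold change was 0.81 and Ccl2 passed (adjusted p = 0.0108). On all 10 libraries it also passed by limma-voom (0.66, adjusted p = 0.0162) and without a filter (0.59, adjusted p = 0.0118). The monocyte attractant Ccl12 was at 1.79, 1.78, 1.11, 2.501 and 5.33 CPM in the controls and 3.27, 5.11, 2.90, 3.58 and 3.29 CPM in the knockouts. Its log2 fold change of 0.53 (adjusted p = 0.314) became 1.02 without control 5 (adjusted p = 0.0155), and on all libraries limma-voom gave 0.85 (adjusted p = 0.0382). Ccl8 was at 45.0, 42.2, 37.1, 58.7 and 91.4 CPM in the controls and 70.0, 112, 52.0, 53.0 and 71.5 CPM in the knockouts (0.39, adjusted p = 0.321), and without control 5 at 0.65 (adjusted p = 0.0481). Control 5 and knockout 2 were the highest libraries of Ccl8 in their groups.

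Ccl7, another Ccr2 ligand, was at 9.999, 8.85, 7.75, 14.7 and 27.6 CPM in the controls and 27.5, 13.3, 11.3, 17.5 and 11.0 CPM in the knockouts (log2 fold change 0.23, adjusted p = 0.692). Control 5 and knockout 1 were the highest libraries, well above the rest. Both also held much skeletal muscle RNA, with summed muscle markers of 488 and 641 CPM, although knockout 3 held 517 CPM with 11.3 CPM of Ccl7. Ccl11 was at 92.1, 86.3, 82.4, 76.2 and 104 CPM in the controls and 72.6, 80.7, 86.6, 90.5 and 77.6 CPM in the knockouts. Its log2 fold change was -0.11 (interval -0.30 to 0.07, adjusted p = 0.394).

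In the second cluster (83525778 to 83664683), Ccl5, Ccl9, Ccl6, Ccl3 and Ccl4 were tested. Ccl5, which encodes RANTES and is made by T and NK cells, was at 2.5, 2.55, 2.40, 2.43 and 2.75 CPM across controls 1 to 5, and at 6.61, 2.49, 6.73, 3.85 and 4.31 CPM across knockouts 1 to 5. The controls lay close together and 4 of the 5 knockouts lay above them, while knockout 2 lay within them. The group means went from 2.53 ± 0.140 CPM to 4.80 ± 1.83 CPM (log2 fold change 0.92, standard error 0.24, adjusted p = 0.0295, GRCm38 chromosome 11, 83525778 to 83530518, minus strand). Knockout 2 was also the knockout with the lowest summed T cell markers, 68.5 CPM, and with the T cell level as a covariate the log2 fold change of Ccl5 was 0.40 (adjusted p = 0.32). That level, a mean log2 CPM, was 0.87 to 1.54 in the controls and 1.08 in knockout 2. In knockouts 1, 3, 4 and 5 it was 1.86 to 3.68. It therefore nearly follows genotype, and fits with it here and below can hardly tell the T cell level and genotype apart.

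The 2 most abundant neighbours of Ccl5 were not called. Ccl6 was at 252, 269, 289.9, 288 and 380.5 CPM in the controls and 302, 341, 278, 316 and 312 CPM in the knockouts (log2 fold change 0.07, interval -0.15 to 0.29, adjusted p = 0.692). Ccl9 was at 217, 249, 284, 246 and 333 CPM in the controls and 245, 300.1, 261, 365 and 353 CPM in the knockouts (0.20, interval -0.09 to 0.48, adjusted p = 0.329). Both were highest in control 5 among the controls. Ccl3, a ligand of Ccr1, was scarce, at 1.49, 1.27, 1.78, 1.89 and 2.58 CPM in the controls and 1.67, 0.851, 1.58, 2.65 and 1.78 CPM in the knockouts (adjusted p = 0.867), and Ccl4 was at 0.830 ± 0.375 CPM in controls and 1.15 ± 0.525 CPM in knockouts (adjusted p = 0.416). The receptor gene Ccr1, expressed by myeloid cells, was at 10.5, 17.2, 11.2, 9.67 and 12.2 CPM in the controls and 13.96, 19.2, 16.6, 18.7 and 13.1 CPM in the knockouts (0.42, interval 0.08 to 0.76, adjusted p = 0.0939). It passed by limma-voom (adjusted p = 0.0424) and without a filter (adjusted p = 0.0289). Control 2 lay inside the knockout range and the other 4 controls lay below every knockout.

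The receptor gene of the monocyte attractants, Ccr2, was at 62.7, 87.5, 64.4, 82.3 and 103 CPM across controls 1 to 5, and at 90.0, 105, 137, 95.2 and 72.8 CPM across knockouts 1 to 5. The groups overlapped, with knockout 3 highest and control 1 lowest, and the log2 fold change of 0.32 did not pass (interval -0.03 to 0.68, adjusted p = 0.201). By limma-voom it was 0.47 and passed (adjusted p = 0.0462). The 18 macrophage markers held 0 calls by edgeR and 1 with an unadjusted p below 0.05, beside 31.0% of all tested genes. Their summed level overlapped, 3289 to 3989.6 CPM among controls, 3191 to 3930.3 CPM among knockouts. The eosinophil pair of Ccl24 and the receptor gene Ccr3 did not pass, with Ccl24 at 13.9 ± 2.43 CPM in controls and 14.6 ± 2.34 CPM in knockouts (adjusted p = 0.756). Ccr3, which also binds eotaxin, was at 0.774, 1.40, 2.27, 1.62 and 1.93 CPM in the controls and 1.49, 1.34, 2.18, 1.39 and 1.71 CPM in the knockouts (adjusted p = 0.972), and control 1 was its lowest library.

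Ccl22, a ligand of Ccr4 made by mature dendritic cells, was at 2.26, 1.40, 2.27, 2.43 and 1.99 CPM across controls 1 to 5, and at 4.48, 3.34, 3.496, 3.05 and 2.33 CPM across knockouts 1 to 5 (22 to 78 counts per library, GRCm38 chromosome 8, 94745590 to 94751699, plus strand). Knockouts 1 to 4 lay above all controls and knockout 5 lay below control 4. Its mean moved from 2.07 ± 0.408 CPM to 3.34 ± 0.780 CPM (log2 fold change 0.69, standard error 0.20, adjusted p = 0.0441). Its neighbour and fellow Ccr4 ligand Ccl17 had 2, 1, 6, 9 and 6 counts across the controls and 6, 10, 9, 5 and 5 counts across the knockouts and was not tested. Nor was Ccr4, with 0, 2, 5, 2 and 3 counts across the controls and 14, 6, 7, 7 and 2 counts across the knockouts.

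Ccl27a encodes a ligand of Ccr10 that is known from skin keratinocytes, and it was lower in the knockout. It was at 2.14, 2.80, 2.40, 2.37 and 2.05 CPM across controls 1 to 5, and at 1.21, 1.46, 2.11, 1.46 and 1.37 CPM across knockouts 1 to 5 (20 to 44 counts per library, GRCm38 chromosome 4, 41769467 to 41774247, minus strand). Knockout 3 lay within the controls and the other 4 knockouts lay below them. Mean levels went from 2.35 ± 0.291 CPM to 1.52 ± 0.345 CPM (log2 fold change -0.63, standard error 0.19, adjusted p = 0.0466). Of its transcript words of 50 bases, 45.0% also occur in transcripts of 6 other genes, so its count is uncertain. These 6 had at most 17 counts each over all libraries. Summed markers of mammary and skin epithelium were at 2.02 to 4.06 CPM among controls, 1.34 to 2.87 CPM among knockouts, and the 1 tested marker of 9, Trp63, was lower (log2 fold change -0.75, adjusted p = 0.0449). Ccl28, the other Ccr10 ligand, was at 1.49, 0.764, 0.861, 1.22 and 1.23 CPM in the controls and 1.26, 1.09, 0.528, 1.46 and 0.890 CPM in the knockouts (adjusted p = 0.871). Ccr10 itself was at 0.774, 1.53, 1.17, 1.01 and 0.410 CPM in the controls and 1.15, 1.09, 0.989, 0.863 and 0.821 CPM in the knockouts (adjusted p = 0.972), so the groups overlapped for both. Ccl25, the ligand of Ccr9, was at 6.96, 6.37, 5.29, 6.15 and 4.86 CPM in the controls and 5.74, 3.53, 4.62, 6.17 and 5.27 CPM in the knockouts (adjusted p = 0.366).

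Xcl1 and Xcr1 form an exclusive pair: T and NK cells secrete the ligand, and the receptor marks the dendritic cells that cross-present antigen. Xcl1 was at 0.595, 0.318, 0.246, 0.406 and 0.645 CPM across controls 1 to 5, and at 1.09, 0.973, 1.45, 1.06 and 0.958 CPM across knockouts 1 to 5 (GRCm38 chromosome 1, 164931644 to 164935527, minus strand). Every knockout lay above every control, and knockout 3 was the highest library. On average it went from 0.442 ± 0.173 CPM to 1.11 ± 0.201 CPM (log2 fold change 1.30, standard error 0.28, adjusted p = 0.0167), which rests on 4 to 22 counts per library. Gm20743 on the other strand covers 18.7% of its exonic bases and did not pass (log2 fold change 0.41, adjusted p = 0.341), and without the strand setting of the counting their reads cannot be told apart there.

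Xcr1 was at 2.26, 1.66, 1.41, 1.83 and 2.11 CPM across controls 1 to 5, and at 3.39, 2.92, 2.64, 2.85 and 2.94 CPM across knockouts 1 to 5 (23 to 59 counts per library, GRCm38 chromosome 9, 123852315 to 123862029, minus strand). Again all knockouts lay above all controls. The group means went from 1.85 ± 0.341 CPM to 2.95 ± 0.274 CPM (log2 fold change 0.67, standard error 0.17, adjusted p = 0.0261). Of the 10 dendritic cell markers, Irf8 and Flt3, 2 genes needed for these cells to develop, were higher (0.65 and 0.67, adjusted p = 0.0161 and 0.022), 0 were lower and 8 did not pass. Clec9a, a surface receptor of the same dendritic subset named here after its values were seen, was at 8.51, 9.04, 8.11, 9.87 and 5.27 CPM in the controls and 5.57, 6.69, 8.18, 5.24 and 5.61 CPM in the knockouts, with a log2 fold change of -0.38 (adjusted p = 0.154), so its sign was opposite to that of Xcr1. Without knockout 1 the log2 fold changes were 1.31 for Xcl1 (adjusted p = 0.0207) and 0.62 for Xcr1 (adjusted p = 0.037). With the T cell level as a covariate they were 1.18 and 0.54, and neither passed (adjusted p = 0.0788 and 0.146).

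The promoter windows of the called genes are printed because the study removed a DNA-binding factor. RefSeq (GRCm38.p6) gave windows of 250 bases before to 50 after the start for 46 of the 60 members and 5 of the 8 called ones. Capitals mark matches to the TCF/LEF core CTTTGAT or to the interferon-stimulated response element GAAANNGAAA, both searched on either strand. They also mark the NF-kB consensus, which was searched only on the strand printed. Ccl27a has 3 annotated starts, and the window of the most downstream is shown, the only one of the 3 with a match in this search.

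Xcl1 window, chr1:164935473-164935772, minus strand: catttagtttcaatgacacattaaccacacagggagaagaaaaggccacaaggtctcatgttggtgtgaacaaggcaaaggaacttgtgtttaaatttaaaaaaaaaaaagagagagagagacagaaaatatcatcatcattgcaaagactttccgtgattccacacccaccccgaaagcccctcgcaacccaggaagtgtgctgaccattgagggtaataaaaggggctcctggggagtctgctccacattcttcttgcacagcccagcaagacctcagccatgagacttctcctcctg
Xcr1 window, chr9:123861980-123862279, minus strand: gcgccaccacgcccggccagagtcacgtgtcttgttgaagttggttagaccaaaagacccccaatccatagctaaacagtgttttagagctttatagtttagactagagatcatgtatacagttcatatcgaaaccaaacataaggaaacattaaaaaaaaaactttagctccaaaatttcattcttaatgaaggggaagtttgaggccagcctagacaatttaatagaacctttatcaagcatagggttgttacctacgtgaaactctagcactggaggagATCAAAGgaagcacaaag
Ccl22 window, chr8:94745434-94745733, plus strand: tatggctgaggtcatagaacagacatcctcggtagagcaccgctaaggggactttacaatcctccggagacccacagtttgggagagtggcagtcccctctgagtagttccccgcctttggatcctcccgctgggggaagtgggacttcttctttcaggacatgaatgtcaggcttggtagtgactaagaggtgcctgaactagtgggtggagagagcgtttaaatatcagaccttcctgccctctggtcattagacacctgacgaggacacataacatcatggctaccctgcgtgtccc
Ackr4 window, chr9:104126594-104126893, minus strand: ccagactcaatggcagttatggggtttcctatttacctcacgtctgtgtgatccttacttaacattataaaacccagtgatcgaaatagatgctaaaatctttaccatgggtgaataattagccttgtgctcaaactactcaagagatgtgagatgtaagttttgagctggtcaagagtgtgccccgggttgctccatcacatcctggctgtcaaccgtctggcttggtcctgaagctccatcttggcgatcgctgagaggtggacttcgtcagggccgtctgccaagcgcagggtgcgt
Ccl27a window, chr4:41770163-41770462, minus strand: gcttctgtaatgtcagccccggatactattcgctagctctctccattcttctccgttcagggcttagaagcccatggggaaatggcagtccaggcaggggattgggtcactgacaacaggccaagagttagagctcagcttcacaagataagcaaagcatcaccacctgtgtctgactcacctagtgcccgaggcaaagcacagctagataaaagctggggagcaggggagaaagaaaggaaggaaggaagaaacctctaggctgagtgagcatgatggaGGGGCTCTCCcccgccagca

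The Xcr1 window held the TCF/LEF letters once, at bases 33 to 39 after the start on the minus strand of the window. On the strand printed, the Ccl27a window held the NF-kB letters once, at bases 31 to 40 after the start. The windows of the other Ccl27a starts, chr4:41774127-41774426 and chr4:41774052-41774351, held none of the motifs in this search. The windows of Xcl1, Ccl22 and Ackr4 held none of the 3 motifs. Over all 53 member windows, 3.77% held the TCF/LEF letters (Xcr1 and Cxcl12), beside 3.73% of 32851 windows of all genes. The NF-kB consensus, on the 1 strand searched, was in 17.0% of member windows, beside 5.89% of all. Among these member windows were those of Cxcl1, Cxcl2, Cxcl3 and Cxcl10. The interferon element was in 5.66%, beside 3.44%. A match is a description of letters and shows no binding. No match says only that these letters are absent from the window as searched, for NF-kB 1 strand.

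Among the CXC ligands, Cxcl12, which retains stem cells and lymphocytes through Cxcr4 and is made by stromal cells, was at 129, 108, 97.9, 111 and 104 CPM across controls 1 to 5, and at 109, 106, 99.1, 97.5 and 76.6 CPM across knockouts 1 to 5. Knockout 5 was lowest and control 1 highest, and the groups overlapped (log2 fold change -0.17, interval -0.38 to 0.03, adjusted p = 0.239). Cxcr4 was at 21.5, 15.3, 24.3, 21.7 and 17.1 CPM in the controls and 18.2, 19.8, 17.6, 21.6 and 21.8 CPM in the knockouts. Its log2 fold change of -0.01 had an interval of -0.28 to 0.25 (adjusted p = 0.959). Cxcl14, a chemokine of fat and skin, was at 28.6, 30.5, 31.8, 27.0 and 34.8 CPM in the controls and 42.3, 37.1, 37.8, 33.8 and 24.8 CPM in the knockouts (0.20, adjusted p = 0.267), with knockout 5 below all controls and 3 knockouts above them. Cxcl16, the ligand of Cxcr6 that exists as a membrane protein, was at 14.5, 11.9, 11.9, 13.7 and 17.2 CPM in the controls and 17.5, 14.96, 16.9, 17.2 and 14.3 CPM in the knockouts (0.22, adjusted p = 0.189). Cxcr6, found on T and NK cells, was at 3.99, 4.07, 1.91, 3.65 and 4.75 CPM in the controls and 8.45, 3.04, 6.00, 4.05 and 4.52 CPM in the knockouts (0.51, adjusted p = 0.24). Without control 5 Cxcl16 passed, at 0.32 (adjusted p = 0.0424). Zmynd15 on the other strand covers 18.3% of the exonic bases of Cxcl16.

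The interferon-induced ligands of Cxcr3 did not pass. Cxcl9 was at 81.1, 51.2, 42.2, 42.2 and 57.6 CPM in the controls and 46.1, 42.6, 97.6, 42.2 and 64.7 CPM in the knockouts (log2 fold change 0.09, interval -0.43 to 0.62, adjusted p = 0.825), and Cxcl10 at 4.94, 2.61, 2.03, 3.52 and 3.28 CPM in the controls and 5.57, 2.43, 6.53, 3.19 and 3.15 CPM in the knockouts (0.35, adjusted p = 0.445). Knockout 3 was the highest library of both, and control 1 the highest control. Cxcr3, carried by activated T cells, was at 3.39, 2.16, 1.91, 1.76 and 2.93 CPM in the controls and 6.20, 2.92, 5.94, 3.25 and 3.29 CPM in the knockouts. Knockouts 1 and 3 lay above all controls and the other 3 within them (log2 fold change 0.83, interval 0.25 to 1.40, adjusted p = 0.0582). Cxcr3 passed without control 5 (adjusted p = 0.0467), by DESeq2 (adjusted p = 0.022) and by limma-voom (adjusted p = 0.041). Cxcl11 is annotated as a polymorphic pseudogene and is therefore no member.

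Cxcl1, a neutrophil attractant that acts through Cxcr2, was at 4.05, 1.91, 2.21, 1.55 and 4.45 CPM in the controls and 3.85, 2.67, 2.90, 3.39 and 4.04 CPM in the knockouts (log2 fold change 0.24, adjusted p = 0.585). Its groups overlapped, with control 5 highest. The related Cxcl2 was at 1.81 ± 0.715 CPM in controls and 1.78 ± 0.407 CPM in knockouts (adjusted p = 0.957). Cxcl5, of the same group, had 1, 0, 0, 3 and 23 counts across the controls and 2, 0, 0, 0 and 0 counts across the knockouts, so most were in control 5. Cxcr2 had 9, 5, 7, 5 and 21 counts in the controls and 59, 7, 8, 8 and 5 counts in the knockouts, and control 5 and knockout 1 were the highest libraries of their groups. Neither was tested. Cx3cl1, a membrane-bound ligand of endothelium, was at 2.68, 2.55, 3.44, 2.70 and 2.46 CPM in the controls and 4.02, 2.55, 1.91, 2.99 and 2.05 CPM in the knockouts (-0.03, adjusted p = 0.947). Its receptor gene Cx3cr1, of monocytes and macrophages, was at 3.99, 3.12, 3.20, 3.04 and 4.10 CPM in the controls and 8.10, 4.38, 5.21, 2.92 and 2.12 CPM in the knockouts (0.39, adjusted p = 0.393), with 3 knockouts above all controls and 2 below them.

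**Figure D3:**
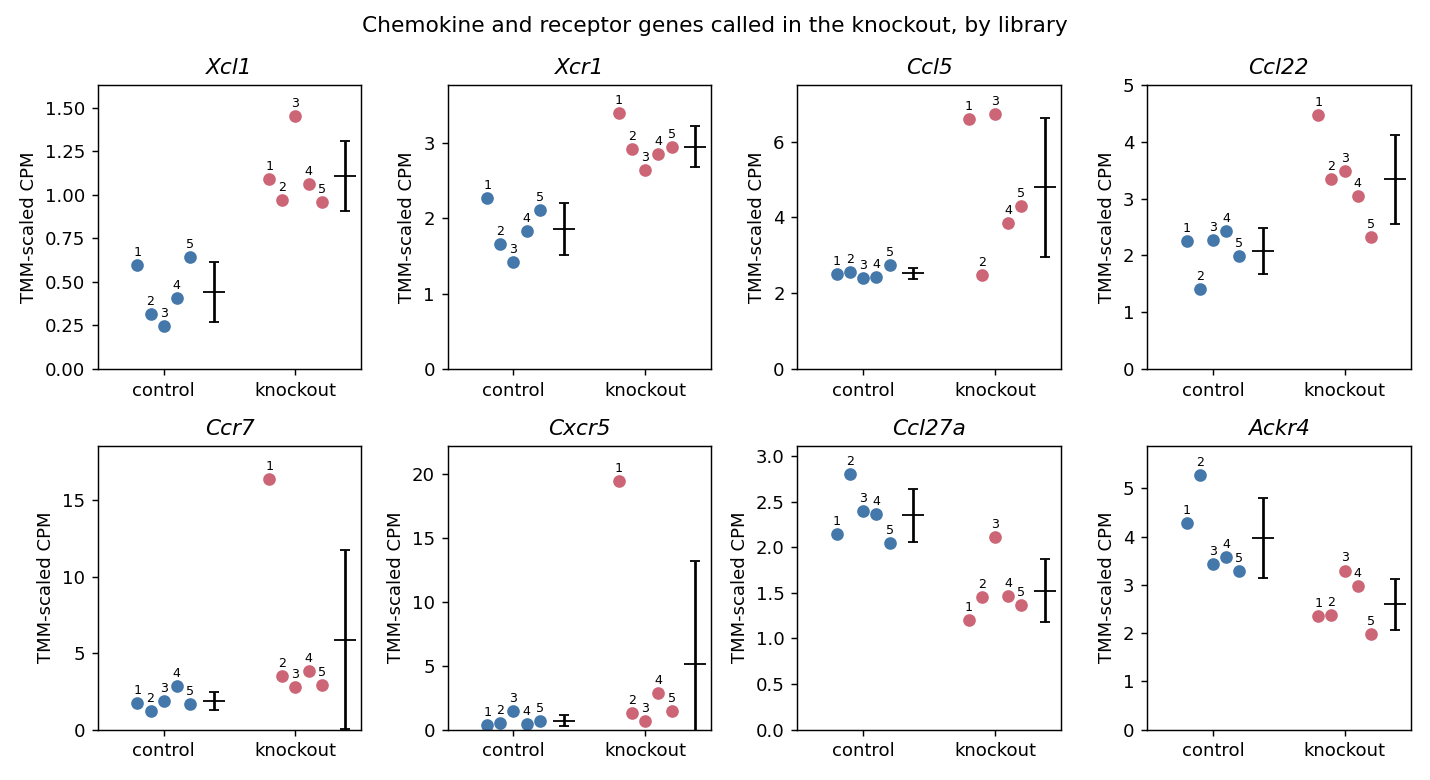
TMM-scaled CPM of the 8 called members in each library (numbered points, controls in blue, knockouts in red), with the mean and SD of each group beside them (an SD bar that would pass below 0 stops at 0). Xcl1 and Xcr1 have no overlap between groups, and knockout 1 stands far above all other libraries for Ccr7 and Cxcr5.

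Cxcr5 and Ccr7, the receptors of lymphoid homing, had the largest log2 fold changes of the 42 tested members, and these were uneven between libraries. Cxcr5, which leads B cells into follicles, was at 0.357, 0.509, 1.48, 0.473 and 0.703 CPM across controls 1 to 5, and at 19.4, 1.28, 0.660, 2.85 and 1.44 CPM across knockouts 1 to 5 (GRCm38 chromosome 9, 44511787 to 44561877, minus strand). Knockouts 1 and 4 lay above all controls and the other 3 within the control range. Its mean moved from 0.704 ± 0.449 CPM to 5.13 ± 8.03 CPM (log2 fold change 2.86, standard error 0.87, adjusted p = 0.0485), and without knockout 1 it was 1.14 (adjusted p = 0.103). On all libraries limma-voom gave 1.40 (adjusted p = 0.142), and a filter at a mean CPM of at least 1 also lost the call (adjusted p = 0.0503). The B cell surface gene Ms4a1 ranked the same 2 knockouts highest, at 1.61, 1.46, 4.79, 1.28 and 1.17 CPM in the controls and 97.8, 4.86, 1.98, 9.96 and 6.85 CPM in the knockouts (log2 fold change 3.56, adjusted p = 0.0352). Of 15 B cell markers 6 were higher and 0 lower. With the B cell level as a covariate the log2 fold change of Cxcr5 was 0.19 (adjusted p = 0.686). That level, a mean log2 CPM, was 1.23 to 2.36 in the controls and 1.83 to 5.74 in the knockouts, highest in knockout 1. Cxcr5 was highest in the same library, so fits with the B cell level here and below can hardly tell that level, knockout 1 and genotype apart.

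Ccr7, which brings T cells and mature dendritic cells to lymph nodes, was at 1.73, 1.21, 1.84, 2.84 and 1.7 CPM across controls 1 to 5, and at 16.4, 3.53, 2.77, 3.85 and 2.94 CPM across knockouts 1 to 5 (GRCm38 chromosome 11, 99144196 to 99155077, minus strand). Knockout 3 lay just below control 4 and the other 4 knockouts above all controls. Mean levels went from 1.86 ± 0.597 CPM to 5.89 ± 5.87 CPM (log2 fold change 1.67, standard error 0.49, adjusted p = 0.0435). Without knockout 1 it was 0.82 and still passed (adjusted p = 0.0311). By limma-voom on all libraries it was 1.04 and did not pass (adjusted p = 0.0505). The T cell receptor subunit gene Cd3d was at 0.714, 0.700, 0.492, 0.744 and 1.05 CPM in the controls and 8.45, 0.730, 2.31, 2.79 and 2.12 CPM in the knockouts (2.14, adjusted p = 0.0248), and 10 of 21 T cell markers were higher and 0 lower. With the T cell level as a covariate the log2 fold change of Ccr7 was 0.37 (adjusted p = 0.577), and with the B cell level it was 0.37 (adjusted p = 0.397).

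Ccr6, of B cells and some T cells, had 0, 1, 4, 2 and 7 counts across the controls and 102, 5, 5, 19 and 4 counts across the knockouts, and did not pass the filter. Knockouts 1 and 4 were again the highest libraries. DESeq2 and the edgeR fit without a filter, which did test Ccr6, called it higher. Ccr9, a gut-homing receptor gene, was at 0.893, 1.21, 1.11, 1.15 and 0.703 CPM in the controls and 4.08, 1.28, 1.45, 1.53 and 1.23 CPM in the knockouts. All knockouts lay above all controls, by a narrow margin except in knockout 1, and the gene did not pass (0.93, adjusted p = 0.0943). Other genes cover 21.4% of the exonic bases of Ccr9. Cxcl13, the ligand of Cxcr5, followed another order, at 5.18, 7.07, 2.40, 5.14 and 20.9 CPM in the controls and 23.2, 4.13, 2.44, 3.85 and 6.09 CPM in the knockouts. Control 5 and knockout 1 stood apart and the log2 fold change of -0.03 had the wide interval of -1.39 to 1.34 (adjusted p = 0.982).

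**Figure D4:**
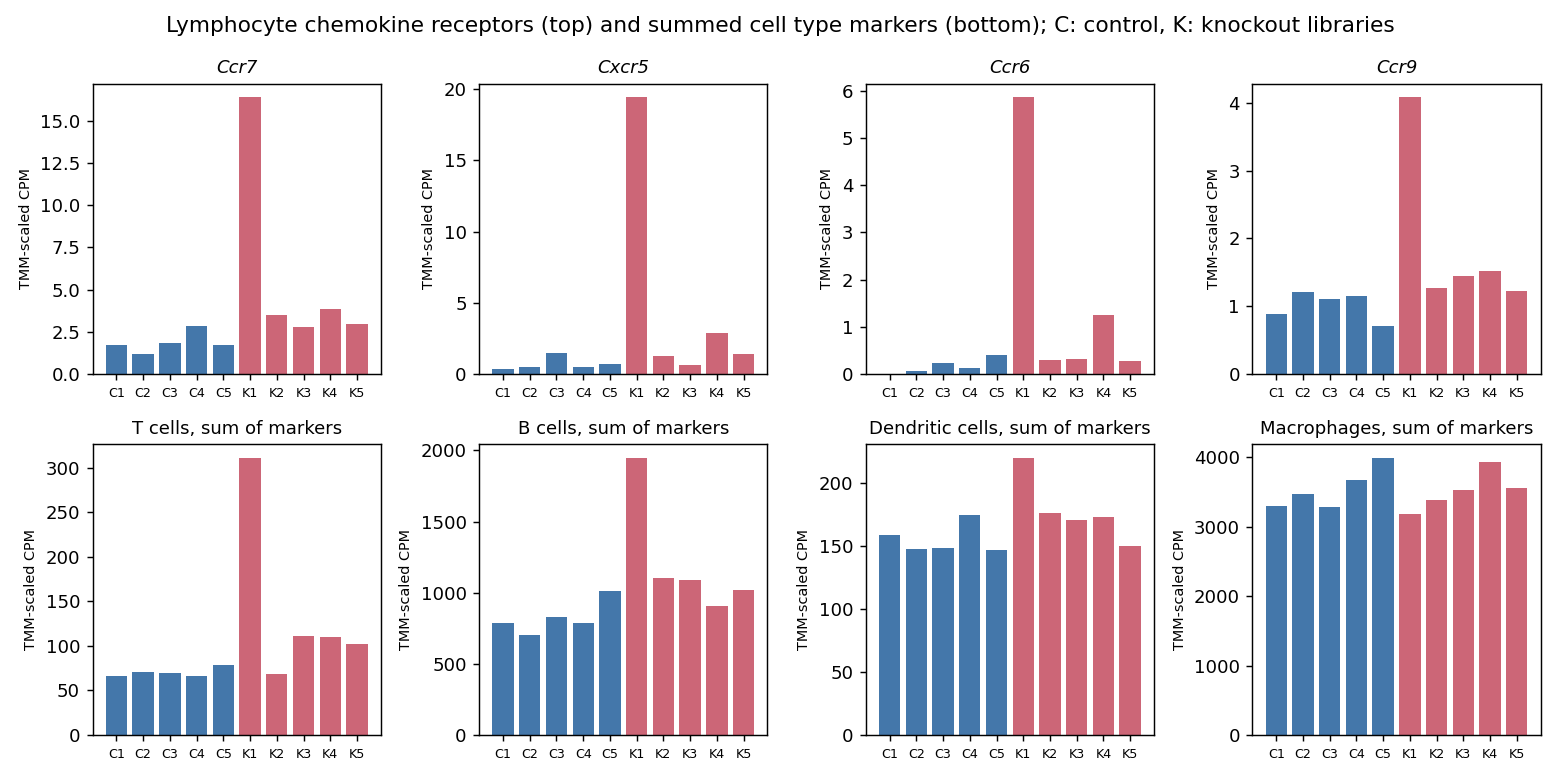
TMM-scaled CPM by library of 4 receptor genes of lymphocytes (top) and summed CPM of the T cell, B cell, dendritic cell and macrophage markers (bottom), controls in blue and knockouts in red. Knockout 1 is the highest library for all 4 receptors and for the T cell, B cell and dendritic cell markers, and the lowest for the macrophage markers.

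The Ccr7 ligands could not be followed. Ccl19, Ccl21a and Ccl21b, which stromal cells of lymph nodes produce, had 0 counts in all 10 libraries, as did Ccl27b and Cxcl15. The first 4 lie with Ccl27a on chromosome 4 between 41769467 and 42773993, in a stretch of repeated genes. Of their transcript words of 50 bases, 52.0% for Ccl19, 71.6% for Ccl21a, 100% for Ccl21b and 98.1% for Ccl27b also occur in transcripts of another gene. The copies of the Ccl21 genes, Gm10591, Gm13304 and Gm21541, also had 0 counts. The Ccl19 pseudogenes Ccl19-ps1 and Gm12407 had 29 and 24 counts over all libraries, of which 19 and 12 were in knockout 1. No source used here states how reads with several matches were counted, so the zeros of Ccl21b and Ccl27b are no measure of expression. The zeros of Ccl19 and Ccl21a speak only for the part of their sequence not shared with other genes. Cxcl15, on chromosome 5, shares 0.53% of its words, so its 0 has little of this limit.

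The atypical receptors remove chemokines or shape their gradients. Ackr4, which takes up Ccl19, Ccl21 and Ccl25, was the called one, at 4.29, 5.28, 3.44, 3.58 and 3.28 CPM across controls 1 to 5, and at 2.36, 2.37, 3.30, 2.99 and 1.99 CPM across knockouts 1 to 5 (29 to 83 counts per library, GRCm38 chromosome 9, 104084157 to 104126933, minus strand). Knockout 3 lay just inside the control range and the other 4 knockouts below it. On average it went from 3.98 ± 0.826 CPM to 2.60 ± 0.531 CPM (log2 fold change -0.61, standard error 0.19, adjusted p = 0.0486). Acad11 covers 8.90% of its exonic bases from the other strand and did not pass (log2 fold change -0.15, adjusted p = 0.369). With the intronic-type level as a covariate the log2 fold change of Ackr4 was -0.17 (adjusted p = 0.838). Ackr3, the scavenger of Cxcl12, was at 53.9, 57.8, 54.7, 50.4 and 61.4 CPM in the controls and 35.6, 56.8, 54.5, 59.9 and 49.6 CPM in the knockouts (-0.12, adjusted p = 0.517), with knockout 1 lowest. Ackr1, carried by venous endothelium, was at 5.24, 4.33, 3.93, 3.38 and 5.16 CPM in the controls and 4.94, 3.59, 4.55, 2.99 and 2.81 CPM in the knockouts (-0.22, adjusted p = 0.451), and Ackr2, a lymphatic scavenger of CC ligands, was at 14.8 ± 3.42 CPM in controls and 13.7 ± 2.0 CPM in knockouts (-0.12, adjusted p = 0.641). Cadm3 covers 25.7% of the exonic bases of Ackr1 on the same strand, so the count of Ackr1 is uncertain. Of 10 blood endothelial markers 8 were lower and 0 higher, their summed level spanning 1038 to 1350.1 CPM among controls, 868 to 999.9 CPM among knockouts. Of 6 lymphatic markers 0 were called by edgeR and 2 had an unadjusted p below 0.05, beside 31.0% of all tested genes. The part of the endothelial difference in the Ackr values was not tested.

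The 13 members with counts that did not pass the filter were Ccl1, Ccl17, Ccl20, Ccl26, Cxcl3, Cxcl5, Cxcl17, Ccr1l1, Ccr4, Ccr6, Ccr8, Cxcr1 and Cxcr2. Ccr8, of regulatory T cells and skin-homing cells, had 0, 0, 1, 0 and 0 counts in the controls and 1, 2, 2, 2 and 4 counts in the knockouts, and its ligand gene Ccl1 had 0 to 5 per library. Ccl20, the ligand of Ccr6, had at most 2 counts in a library, Ccl26 at most 1, Cxcl17 at most 3 and Cxcr1 at most 2. Cxcl3 had 9 in control 5 and at most 2 elsewhere. For Ccl20, Ccl26, Cxcl17 and Cxcr1 a difference was not detectable at this depth.

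Among genes that surround the family, 1 of 34 for signalling downstream of the receptors was higher, the Src-family kinase gene Lyn (log2 fold change 0.19, adjusted p = 0.0414), and 0 were lower (median 0.14). Of 20 tested inducers of chemokine genes, 4 were higher and 1 lower, and 15 did not pass (median 0.03). The higher ones were Ltb, which encodes lymphotoxin beta (2.59, adjusted p = 0.03), its receptor gene Ltbr (0.25, adjusted p = 0.0248), the NF-kB subunit gene Nfkb2 (0.38, adjusted p = 0.0396) and the kinase gene Map3k14 (0.58, adjusted p = 0.0473). Nfkb2 and Map3k14 were named after their values were seen. Ltb was at 30.7 CPM in knockout 1 and at 1.15 to 4.98 CPM elsewhere. The interferon-gamma receptor gene Ifngr1 was lower (-0.28, adjusted p = 0.0385). Of 12 genes for processing and presentation and of 5 relatives outside the rule (Pf4, Ppbp, Ccrl2, Gpr182 and Cklf), 0 were called by edgeR, with 0 and 0 at an unadjusted p below 0.05. Over all tested genes the share at that unadjusted p was 31.0%.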

How the data were processed

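Total RNA of inguinal fat in 5 control and 5 knockout libraries was sequenced with a stranded ribosomal RNA depletion kit, per the labels' protocols. The authors deposited raw counts per Ensembl gene. The submitters' processing notes name STAR 2.5.2b, featureCounts 1.5.1, DESeq2 1.16.0 and GRCm38. No source used here states the annotation release, the strand setting or how multimapping reads were treated. Symbols, biotypes and coordinates came from GENCODE M21, in which 233 of 52636 identifiers were not found.

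The counts were tested with edgeR 4.0.16 (R 4.3.3): filterByExpr, TMM scaling, the quasi-likelihood test and Benjamini-Hochberg adjustment over all 15927 genes that passed, with a gene called at an adjusted p below 0.05. Only the genotype was in the model. The standard error is the log2 fold change divided by the square root of F, and intervals are 95% and unadjusted. CPM values are the counts scaled to library size with TMM factors, and levels between genes are per kilobase of exon. The scripts were tested on simulated data. Other fits used DESeq2 1.42.0, limma-voom with quality weights (limma 3.58.1), other filters, each library left out, and scores of T cell, B cell, macrophage and intronic-type genes as covariates. The quality weights let libraries count unequally, so limma-voom differs from edgeR in more than the tool.

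Members were named with values in every library where they were called, were among the 4 ligands or 4 receptors of highest level, or belonged to a ligand and receptor pair on a list; other members are given in ranges or means. The values of 1 tested member are not reported here, although counts and medians over the members include it. The members, the 18 gene lists and the tests were chosen with earlier results of these data known. Groups came from the genotype label, and replicate numbers from accession order. Pairs of libraries within a group differed by more than sampling noise, so none was treated as a rerun of another and all 10 were counted. That check cannot show that each library came from its own mouse.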

Additional observations from a re-analysis of the deposited data

Results flagged for a closer look

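In 9 of the 84 groups of 5 libraries that the 42 tested members form, 1 library stood apart from the other 4 by Dixon's test. For independent groups of normally distributed values, chance flags about 1 in 20. Whether the CPM values meet this was not tested, and the groups share the same 10 libraries, so the rate to be expected here is not known.

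Knockout 1 stood high for 4 genes. It was at 16.37 CPM for Ccr7 with the next knockout at 3.85 CPM, at 19.42 CPM for Cxcr5 with the next at 2.854 CPM, at 4.079 CPM for Ccr9 with the next at 1.527 CPM, and at 23.21 CPM for Cxcl13 with the next at 6.092 CPM. Knockout 3 stood high for 3 genes, at 2.111 CPM for Ccl27a with the next at 1.46 CPM, at 2.045 CPM for Ccl4 with the next at 1.095 CPM, and at 1.451 CPM for Xcl1 with the next at 1.092 CPM.

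Among the controls, control 5 stood high for Cxcl13, at 20.86 CPM with the next control at 7.067 CPM. Control 3 stood high for Cx3cl1, at 3.442 CPM with the next at 2.704 CPM.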

How the results depend on the processing

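Over all genes, 2053 were called, and 537 to 3094 when 1 library was left out in turn. The count was 3605 by limma-voom with quality weights and 3774 without both control 5 and knockout 1. It was 675 with the T cell score as a covariate, 724 with the B cell score and 49 with the intronic-type score. Among the members, 6 were higher, and 1 to 8 with 1 library left out, 10 without a filter, 0 with the T cell score, 1 with the B cell score, 3 with the macrophage score and 0 with the intronic-type score. The 2 members that were lower became 0 to 2 with 1 library left out, 1 by DESeq2, and 0 without a filter and with each of the 4 scores. The cause of these shifts was not tested. No member's called direction was reversed: for the 8 called members, 70 other fits kept the call and 88 lost it, and for the other tested members 19 fits gained one and 69 moved an uncalled value across 0. Ccr7 had no adjusted p by DESeq2, and Xcl1 was not tested at a mean CPM of at least 1. No paired analysis was possible because the replicate numbers follow accession order and the numbers in the titles do not match between groups. A count of 3 limits what a library can show for scarce members such as Xcl1.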
